A study of Homo sapiens with 12 samples.

Results

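The transcripts described here were those of 10 nuclear genes whose products fold or degrade proteins inside mitochondria. They were HSPD1, HSPE1, HSPA9, DNAJA3, LONP1, CLPP, CLPX, YME1L1, OMA1 and SPG7, chosen by gene name. All 10 were found in both deposited count tables, each of which held 58735 rows of gene names, and all 10 passed the filter on low counts in every comparison. RNA-seq had been done on KELLY and SK-N-AS, a pair of human neuroblastoma cell lines, of which KELLY carries an amplified MYCN gene and SK-N-AS does not. Each line was given the vehicle DMSO or Erastin, a blocker of the cystine/glutamate antiporter that drives cells toward ferroptosis, and was harvested at 24 h. Erastin was used at 1 µM on KELLY and at 2 µM on SK-N-AS, so line and dose cannot be told apart in any comparison of the responses. There were 12 libraries, 3 in each of 4 groups, and the replicates of a group were cultures of a single line. Erastin was compared with DMSO in each line, and the DMSO controls were compared between the lines.

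Most mitochondrial proteins are made in the cytosol, threaded through the inner membrane and folded in the matrix. When unfolded or damaged proteins collect there, cells can raise the transcription of mitochondrial chaperones and proteases, a program called the mitochondrial unfolded protein response. A separate alarm route in mammalian cells starts with OMA1, a protease of the inner membrane that cleaves DELE1. The fragment of DELE1 activates the kinase HRI, encoded by EIF2AK1, and phosphorylation of the initiation factor eIF2 then favours translation of ATF4, a transcription factor of the integrated stress response. Activation of OMA1, DELE1 and HRI takes place on proteins, which RNA-seq does not measure.

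The total count per library lay between 24169796 and 29835670. Replicates differed in a trend of abundance with the GC content of the gene. Across 12037 genes in KELLY, which are not independent replicates, Spearman's rho between GC content and the log2 ratio of a library to its line's mean ran from -0.83 in DMSO replicate 1 to 0.87 in Erastin replicate 1. In SK-N-AS it ran from -0.75 in DMSO replicate 3 to 0.77 in DMSO replicate 1, across 11901 genes. Results are therefore given as fitted to the deposited counts, and where a call or a value changed, also with each library's GC trend removed. Markers matched the labels in part. HAND2 and GATA3, transcription factors of sympathetic neuroblasts, had at least 3864 counts in every library of both lines. TH and DBH, enzymes of catecholamine synthesis, had at least 6846 counts in each KELLY library and at most 161 in each SK-N-AS library, whereas the mesenchymal genes PRRX1 and VIM had at most 1497 counts in KELLY and at least 6447 in SK-N-AS. Of the 8 mesenchymal genes listed, 7 had more counts in every SK-N-AS library than in any KELLY library, and NOTCH2 did not, with 12 to 40 counts in KELLY and 16 to 32 in SK-N-AS. Among markers of blood cells, PTPRC had 12835 to 16496 counts in SK-N-AS and 0 in KELLY, HBB and HBA2 reached 208 and 178 counts, CD14 and NKG7 reached 19 and 5, and CD3E had 0 counts in every library. The part of these markers in the differences between the lines was not tested.

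Transcript levels were first compared between the 10 genes. Counts scaled to library size (CPM, scaled by TMM over the 12 libraries) were divided by the length of the representative MANE Select transcript in kilobases, since a long transcript yields more reads than a short one. HSPD1 encodes HSP60, the barrel-shaped chaperonin of the matrix, and had the highest level in both lines, 462 ± 37.7 CPM per kb (SD, n = 3) in KELLY and 436 ± 31.9 (SD, n = 3) in SK-N-AS with DMSO. HSPA9, which encodes mortalin, the matrix HSP70 that pulls in and folds arriving proteins, came next with 172 ± 20.1 CPM per kb (SD, n = 3) in KELLY and 104 ± 5.64 (SD, n = 3) in SK-N-AS. OMA1 had the lowest level, 4.42 ± 0.50 CPM per kb (SD, n = 3) in KELLY and 4.61 ± 0.79 (SD, n = 3) in SK-N-AS.

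**Figure D1:**
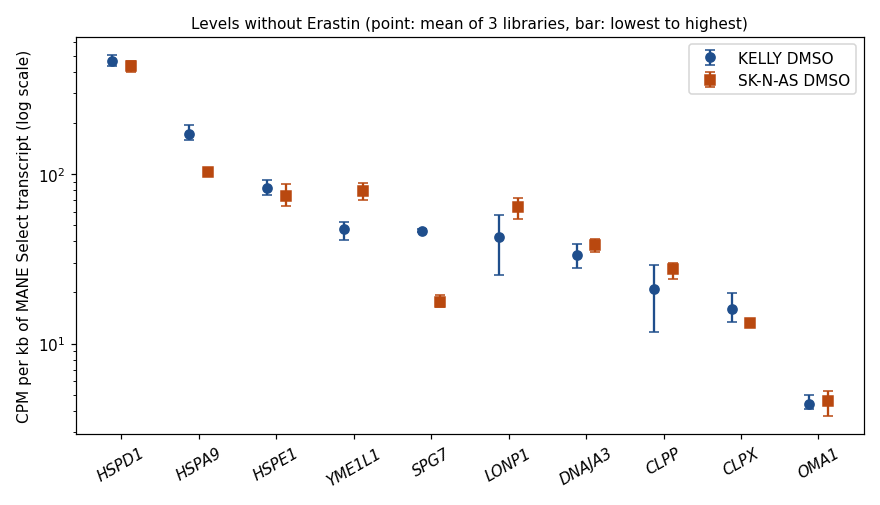
Level of each of the 10 transcripts in the DMSO libraries of KELLY (circles) and SK-N-AS (squares), in CPM per kb of MANE Select transcript on a log axis, as the mean of 3 libraries with a bar from the lowest to the highest. HSPD1 lies above and OMA1 below all others in both lines, and SPG7 lies at 46.2 CPM per kb in KELLY and 17.5 in SK-N-AS.

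In KELLY the order below HSPA9 was HSPE1, YME1L1, SPG7, LONP1, DNAJA3, CLPP and CLPX. HSPE1, at 83.1 CPM per kb, was above YME1L1 in every library. YME1L1, SPG7 and LONP1 had 47.1, 46.2 and 42.4 CPM per kb, their replicate ranges overlapped, and they were not told apart in order. The ranges of LONP1 and DNAJA3 also overlapped, as did those of DNAJA3 and CLPP and those of CLPP and CLPX. In SK-N-AS, YME1L1 and HSPE1 overlapped at 79.8 and 74.1 CPM per kb, and HSPE1 overlapped with LONP1 at 63.8. DNAJA3 (38.3), CLPP (27.6), SPG7 (17.5) and CLPX (13.1) followed in that order without overlap. The place of SPG7 depended on the length used, since its transcripts in GENCODE 44 merge to 35761 exonic bases, whereas its MANE Select transcript has 3076. With merged exons SPG7 fell to 3.97 CPM per kb in KELLY and 1.51 in SK-N-AS, below OMA1 in the latter. Other places moved with merged exons as well. In KELLY, HSPE1 stood at 25.4 CPM per kb, below YME1L1 at 26.9 and LONP1 at 26.0. In SK-N-AS, DNAJA3 (14.6) came below CLPP (18.8), and HSPE1 (22.6) below LONP1 (39.2). The order given above thus holds for the MANE Select length only.

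The 10 transcripts were then followed in each library, and the plot of CPM by library shows every value.

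**Figure D2:**
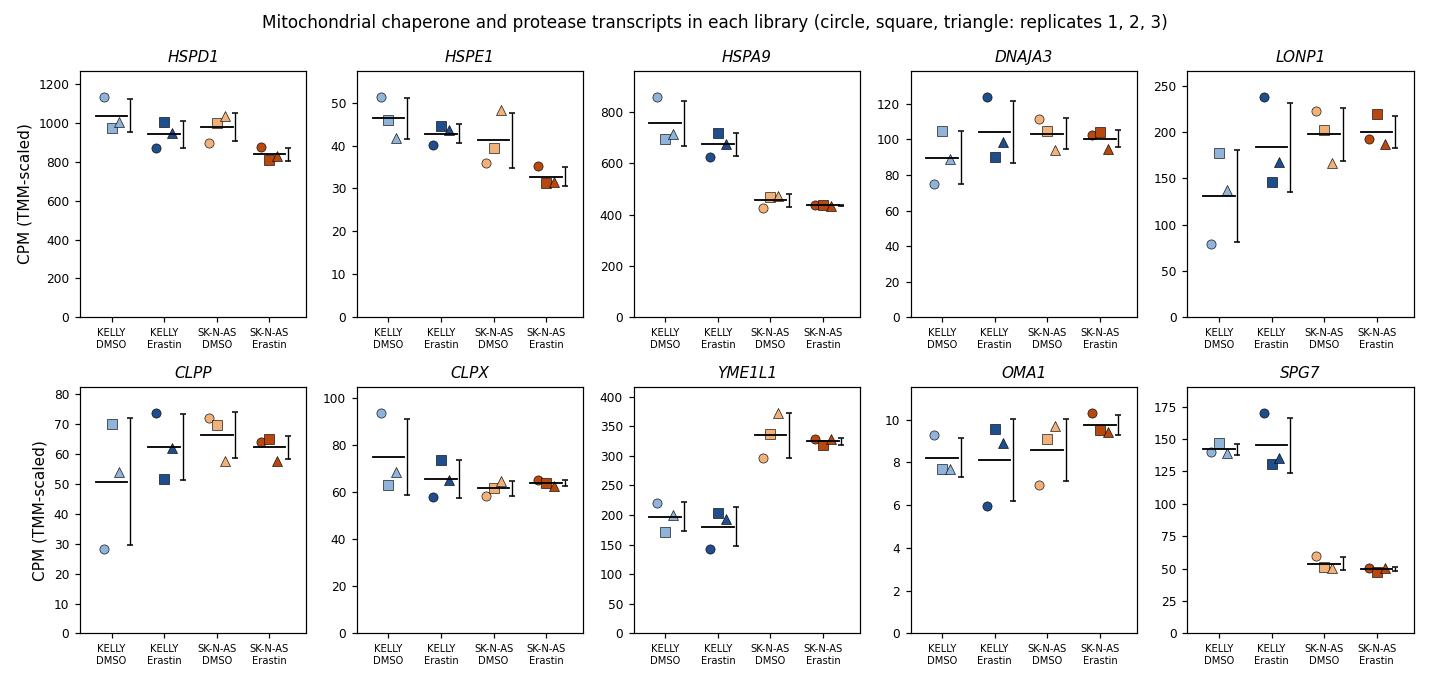
TMM-scaled CPM of each transcript in each of the 12 libraries, with circles, squares and triangles for replicates 1, 2 and 3, a line at the group mean and a bar of 1 SD. Erastin and DMSO overlap for all 10 transcripts in KELLY, while HSPD1 and HSPE1 in SK-N-AS lie lower in all 3 Erastin libraries than in all 3 DMSO libraries.

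Of the 10 members, the chaperonin pair had the lowest unadjusted p with Erastin, in SK-N-AS. HSPE1 encodes HSP10, the lid that closes over the HSP60 chamber, so the products of HSPD1 and HSPE1 work as a single machine. In SK-N-AS, HSPD1 had 900, 1001 and 1038 CPM in the DMSO replicates 1 to 3 and 876, 813 and 831 CPM in the Erastin replicates. HSPE1 had 36.0, 39.4 and 48.4 CPM with DMSO and 35.3, 31.3 and 31.6 CPM with Erastin. All 3 Erastin libraries lay below all 3 DMSO libraries for both genes, although the highest Erastin library and the lowest DMSO library, both replicate 1, were close. The log2 fold change of HSPD1 was -0.21 (95% interval -0.38 to -0.04, unadjusted p = 0.0185 and adjusted p = 0.407 in edgeR's quasi-likelihood test). That of HSPE1 was -0.32 (95% interval -0.58 to -0.06, unadjusted p = 0.0187 and adjusted p = 0.408 in the same edgeR test). Neither passed the adjusted threshold of 0.05. With each library's GC trend removed, both did, at -0.23 (adjusted p = 0.00685 from edgeR) for HSPD1 and -0.33 (adjusted p = 0.0486 from edgeR) for HSPE1. In that fit 5.58% of all genes tested in SK-N-AS passed. Over the 17 alternatives run, the adjusted p ran from 0.00144 to 1 for HSPD1 and from 0.0233 to 1 for HSPE1, and the log2 fold change from -0.27 to -0.17 and from -0.42 to -0.19. The highest p came from the fit of all 12 samples and the smallest log2 fold changes from the fit without DMSO replicate 3.

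In KELLY, HSPD1 had 1134, 974 and 1006 CPM under DMSO and 871, 1009 and 950 CPM under Erastin, and the groups overlapped. HSPE1 had 51.3, 45.9 and 41.7 CPM with DMSO and 40.2, 44.5 and 43.7 CPM with Erastin, also with overlap. The log2 fold changes were -0.14 (95% interval -0.43 to 0.16) for HSPD1 and -0.11 (95% interval -0.47 to 0.25) for HSPE1. With the GC trend removed, HSPD1 stood at 0.01 (95% interval -0.19 to 0.21). Whether the response of HSPD1 differed between the lines was tested as the interaction of line and treatment, which gave -0.08 toward lower values in SK-N-AS (95% interval -0.38 to 0.22, adjusted p = 0.857 from edgeR). With the GC trend removed it was -0.24 (95% interval -0.44 to -0.04, unadjusted p = 0.0205 and adjusted p = 0.567 from edgeR). The ratio of HSPE1 to HSPD1, each per kb of transcript, in KELLY was 0.180 ± 0.012 (SD, n = 3) under DMSO and 0.183 ± 0.0044 (SD, n = 3) under Erastin. In SK-N-AS it was 0.169 ± 0.016 (SD, n = 3) under DMSO and 0.157 ± 0.0047 (SD, n = 3) under Erastin, and the replicate ranges of these groups overlapped.

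HSPD1 and HSPE1 are neighbours on chromosome 2 that are read in opposite directions from a shared region. In GENCODE on GRCh38, HSPD1 lies at chr2:197486584-197516737 on the minus strand and HSPE1 at chr2:197500140-197503449 on the plus strand. RefSeq (GRCh38.p14) places the start of HSPE1 at position 197500379 and starts of HSPD1 at 197500274 and 197499840, which are 105 and 539 bases from it. The 250 bases before the HSPE1 start and before the inner HSPD1 start are shown because these 2 genes had the lowest unadjusted p of the members with Erastin and are neighbours. Each stretch is given 5′ to 3′ on its own strand, and the 2 stretches do not overlap. Capitals mark matches to the letters of a heat shock element, TTCNNGAA or GAANNTTC, and to the E-box CACGTG.
HSPE1, chr2:197500129-197500378, plus strand: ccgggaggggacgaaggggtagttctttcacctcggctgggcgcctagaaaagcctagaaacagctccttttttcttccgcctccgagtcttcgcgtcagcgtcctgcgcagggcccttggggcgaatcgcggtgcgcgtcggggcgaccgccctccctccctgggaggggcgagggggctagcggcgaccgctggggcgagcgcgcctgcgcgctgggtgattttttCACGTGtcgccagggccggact
HSPD1, chr2:197499841-197500090, minus strand: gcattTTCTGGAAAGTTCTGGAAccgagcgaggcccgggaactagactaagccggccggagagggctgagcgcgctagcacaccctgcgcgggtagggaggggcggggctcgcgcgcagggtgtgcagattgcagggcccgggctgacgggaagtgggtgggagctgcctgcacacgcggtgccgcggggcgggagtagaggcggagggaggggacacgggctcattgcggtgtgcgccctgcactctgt

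The HSPD1 stretch opens with 2 matches to TTCNNGAA and 1 to GAANNTTC that overlap in a single run, letters known from the sites of heat shock factors. The single CACGTG in front of HSPE1 is also inside the window of the outer HSPD1 start, read from the other strand. That outer window is not shown, overlaps the window of HSPE1 and has 0 matches to TTCNNGAA or GAANNTTC. RefSeq windows of 250 bases before to 50 after a start were at hand for 8 of the 10 genes, all but CLPP and YME1L1, as 11 windows in all. Both strands were searched. CACGTG was found for HSPA9, HSPD1, HSPE1 and LONP1, in 4 of the 11 windows, against 7.26% of 35116 windows of all genes. The HSPD1 and HSPE1 matches are the same site in overlapping windows, and the windows of SPG7 also overlap. The 11 windows are thus not independent, and the excess was not tested. TTCNNGAA was found for HSPA9 and HSPD1 (7.74% of all windows), GAANNTTC for HSPD1 (6.77%) and CCAAT for CLPX and DNAJA3 (34.6%). TGATGNAA, the composite letters bound by ATF4 with a C/EBP partner, occurred in 3.62% of all windows and in 0 of these 11.

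Counting also sets a limit on this pair. Of the 557 bases of the HSPE1 MANE Select transcript, 34.5% are exonic in another gene as well. That share has the size of the 192 bases in common with the readthrough gene HSPE1-MOB4, which is on the same strand. Over all its exons HSPE1 also shares 135 bases with HSPD1 on the opposite strand. The strand setting of the counting, which bears on bases shared with HSPD1, is not given in the sources used here. HSPE1-MOB4 itself had at most 2 counts in any library. The tables held 17 rows of HSPD1 pseudogenes, with at most 331 counts in a library, and 26 of HSPE1 pseudogenes, with at most 29. How reads shared with these copies and neighbours were assigned was not tested.

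Taking all members in SK-N-AS, 0 of 10 passed an adjusted p of 0.05 with edgeR, where 0.659% of 16095 genes did. DESeq2 and limma-voom also gave 0, and HSPD1 and HSPE1 were the 2 members with an unadjusted p under 0.05. At the threshold of the study's methods, an unadjusted p of at most 0.05 with a change of at least 1.5-fold, 0 of 10 passed against 2.67% of genes. HSPD1 and HSPE1 were also the 2 of 10 members whose groups did not overlap, a pattern that 14.9% of all genes tested in this line showed.

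None of the other 8 transcripts had an unadjusted p under 0.05 with Erastin in SK-N-AS. HSPA9 had 427, 469 and 471 CPM with DMSO and 439, 436 and 433 CPM with Erastin, a log2 fold change of -0.05 (95% interval -0.21 to 0.11). DNAJA3, a J-domain partner of mortalin, had 93.9 to 111 CPM with DMSO and 94.9 to 104 CPM with Erastin. The replicate ranges of the other matrix and membrane proteases overlapped as well. LONP1, the ATP-driven protease of the matrix, had 167 to 223 CPM with DMSO and 187 to 219 CPM with Erastin, a log2 fold change of 0.03 (95% interval -0.21 to 0.26). CLPP, a proteolytic chamber, and CLPX, the unfoldase that feeds it, had log2 fold changes of -0.08 and 0.06. Of the inner membrane proteases, YME1L1 had a log2 fold change of -0.03 and SPG7 of -0.11. OMA1, the trigger of the DELE1 relay, had 6.92, 9.10 and 9.70 CPM with DMSO and 10.3, 9.49 and 9.43 CPM with Erastin, a log2 fold change of 0.19 (95% interval -0.12 to 0.51). OMA1 and DAB1 share 13.4% of the bases of the OMA1 MANE Select transcript.

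In KELLY, 0 of 10 members passed an adjusted p of 0.05 with edgeR, where 1 gene of 16258 did (0.00615%). None had an unadjusted p under 0.05, and DESeq2 and limma-voom gave 0 as well. At the threshold of the methods 0 of 10 passed against 2.03% of genes, and no member separated the groups, against 8.57% of genes. LONP1 had the largest fitted change. It had 78.5, 177 and 137 CPM in the DMSO replicates 1 to 3 and 238, 146 and 167 CPM in the Erastin replicates. The lowest DMSO library and the highest Erastin library, both replicate 1, stood apart from the rest, which overlapped. Its log2 fold change was 0.49 (95% interval -0.23 to 1.22, adjusted p = 0.770 from edgeR), and 0.15 (95% interval -0.06 to 0.36) with the GC trend removed. Without DMSO replicate 1 it was 0.23 and without DMSO replicate 2 it was 0.77, when LONP1 passed the threshold of the methods.

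CLPP had 28.2, 70.1 and 54.0 CPM with DMSO and 73.6, 51.6 and 62.1 CPM with Erastin in KELLY, again with DMSO replicate 1 lowest and Erastin replicate 1 highest. Its log2 fold change was 0.30 (95% interval -0.44 to 1.04), and that of DNAJA3 was 0.22 (95% interval -0.22 to 0.66). Removing the GC trend gave 0.09 and 0.10. Leaving out DMSO replicate 1 gave 0.01 for CLPP and leaving out DMSO replicate 2 gave 0.60, while DNAJA3 stood at 0.07 without Erastin replicate 1 and at 0.34 without DMSO replicate 2. CLPX ran the other way, with 93.4, 63.2 and 68.6 CPM with DMSO and 57.9, 73.7 and 65.0 CPM with Erastin, a log2 fold change of -0.19 (95% interval -0.65 to 0.26), which was 0.0029 with the GC trend removed. HSPA9 (-0.16), YME1L1 (-0.13), OMA1 (-0.01) and SPG7 (0.04) all had 95% intervals that included 0. The median over the 10 members was -0.06 in KELLY and -0.04 in SK-N-AS on the log2 scale, beside 0.01 and -0.01 over all genes tested. Of the 10, 4 had a positive log2 fold change in KELLY and 3 in SK-N-AS. The GC-corrected fits gave 7 positive values for KELLY, with a median of 0.02, and 3 for SK-N-AS, with a median of -0.05. The KELLY data left room for sizeable changes, since the members' 95% intervals there reached from -0.65 to 1.22, against -0.58 to 0.51 in SK-N-AS.

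**Figure D3:**
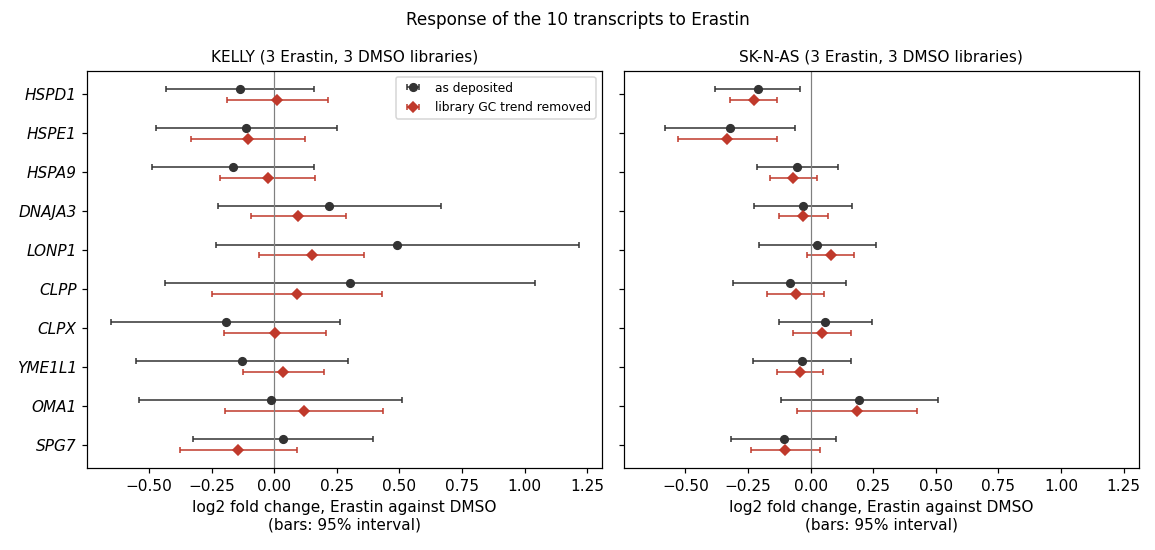
Log2 fold change of each transcript with Erastin against DMSO in KELLY and SK-N-AS, with 95% intervals, fitted to the deposited counts (circles) and with each library's GC trend removed (diamonds). The intervals of HSPD1 and HSPE1 in SK-N-AS lie below 0 in both fits, and the KELLY value of LONP1 is 0.49 in the former and 0.15 in the latter.

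The interaction of line and treatment was tested over all 12 libraries. Of the 10 members, 0 passed an adjusted p of 0.05 with edgeR, beside 0.00549% of 18212 genes, 0 had an unadjusted p under 0.05, and DESeq2 and limma-voom gave 0. With the GC trend removed, 0.110% of genes and 0 members passed. The differences, SK-N-AS minus KELLY, ran from -0.47 for LONP1 (95% interval -1.25 to 0.31) to 0.24 for CLPX (95% interval -0.21 to 0.70). Over the 22 alternatives the value of LONP1 ran from -0.75 to -0.06 and that of CLPX from 0.04 to 0.35. Without KELLY DMSO replicate 2, LONP1 (-0.75) and CLPP (-0.70) had an unadjusted p under 0.05 (adjusted p = 0.446 for each from edgeR). None of the 10 responses was shown to differ between the lines.

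Over the 6 libraries of a line, DMSO and Erastin together, the members' deviations followed the GC content of their merged exons, to differing degrees. The merged exons of SPG7 hold 35761 bases, against 3076 in its MANE Select transcript. LONP1 (62.1% GC), CLPP (57.2%), SPG7 (53.2%) and DNAJA3 (51.8%) are rich in GC, while HSPE1 (47.2%), HSPA9 (42.8%), HSPD1 (42.3%), OMA1 (42.2%), YME1L1 (41.2%) and CLPX (40.9%) are not. In KELLY DMSO replicate 1, the library with the lowest GC trend, LONP1 was 0.92 and CLPP 0.93 below the mean of the line on the log2 scale, while CLPX was 0.44 and HSPA9 0.28 above it. In KELLY Erastin replicate 1, the library with the highest trend, LONP1 was 0.68 above and OMA1 0.43 below. These libraries differ in treatment as well as in GC trend. The log2 range of LONP1 over the 6 KELLY libraries was 1.60, and 0.40 once each library's GC curve was subtracted. That of YME1L1 was 0.62 and 0.13. The range narrowed for 9 of 10 members in KELLY, where the median range went from 0.64 to 0.27, and for 8 of 10 in SK-N-AS, where it went from 0.33 to 0.16. For HSPE1 in SK-N-AS the range was 0.62 before and 0.64 after, and for SPG7 in KELLY it was 0.39 before and 0.40 after.

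**Figure D4:**
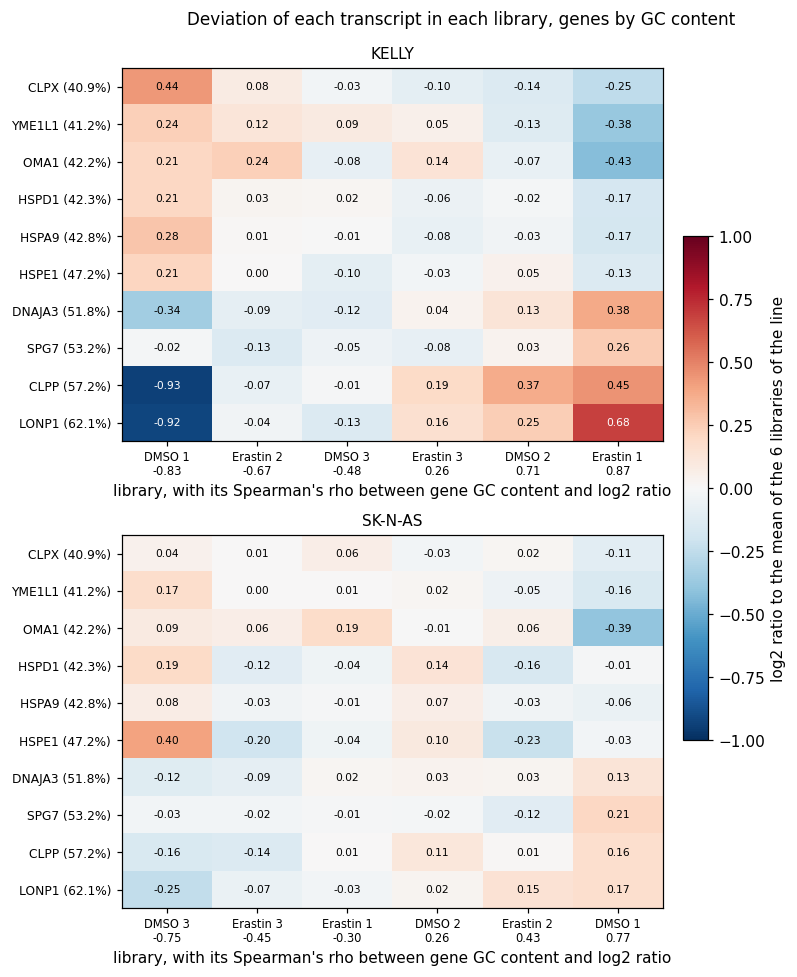
Deviation of each transcript in each library from the mean of the 6 libraries of its line, as a log2 ratio, with genes ordered by GC content from top to bottom and libraries ordered from left to right by Spearman's rho between gene GC content and log2 ratio. In KELLY, LONP1 runs from -0.92 at the left to 0.68 at the right and CLPX from 0.44 to -0.25, whereas HSPE1 in SK-N-AS is lowest in an Erastin library near the right, at -0.23.

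Levels without Erastin differed between the lines for 3 of the 10 members by edgeR's quasi-likelihood test, where 61.3% of 17071 genes passed an adjusted p of 0.05. SPG7 and HSPA9 were higher in KELLY, 2 of 10 members against 30.9% of genes, and YME1L1 was higher in SK-N-AS. The same 3 were those whose groups did not overlap (66.4% of all genes) and those past the threshold of the methods (57.6%). These shares of the members lie below those of all genes. In bulk RNA, a lower level can come from fewer cells with the transcript or from less of it in each cell, which cannot be told apart.

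SPG7 encodes paraplegin, a subunit of the m-AAA protease that faces the matrix, and its loss of function causes a hereditary spastic paraplegia. It had 140, 147 and 139 CPM in the KELLY DMSO libraries and 59.7, 51.1 and 50.7 CPM in the SK-N-AS DMSO libraries. Each KELLY library was above every SK-N-AS library by a wide margin. The log2 difference between the lines, with KELLY subtracted, was -1.41 (SE 0.13, adjusted p = 2.26e-05 from edgeR), and it stayed between -1.48 and -1.36 with any 1 library left out. AFG3L2, the partner subunit that can also build the protease alone, did not follow, with 66.5 ± 9.67 CPM (SD, n = 3) in KELLY and 70.9 ± 1.99 (SD, n = 3) in SK-N-AS, a log2 difference of 0.08 (adjusted p = 0.664 from edgeR). The ratio of SPG7 to AFG3L2 per kb of transcript under DMSO was 2.22 ± 0.33 (SD, n = 3) in KELLY and 0.779 ± 0.061 (SD, n = 3) in SK-N-AS. Under Erastin it was 2.13 ± 0.28 (SD, n = 3) in KELLY and 0.715 ± 0.045 (SD, n = 3) in SK-N-AS, so that the lines did not overlap. The ratio had no test of its own. SPG7 lies at chr16:89490719-89557766 on the plus strand of GRCh38.

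HSPA9 had 858, 697 and 714 CPM in KELLY with DMSO against 427, 469 and 471 CPM in SK-N-AS, with no overlap. The log2 difference was -0.74 (SE 0.13, adjusted p = 9.63e-04 from edgeR). YME1L1 is the i-AAA protease of the inner membrane, whose active side faces the intermembrane space and which, with OMA1, cuts the fusion protein OPA1. It had 220, 172 and 201 CPM in KELLY against 296, 336 and 372 CPM in SK-N-AS, with every SK-N-AS library higher. The log2 difference was 0.75 (SE 0.15, adjusted p = 0.00199 from edgeR). OMA1, the other OPA1 protease, had 8.23 ± 0.93 CPM (SD, n = 3) in KELLY and 8.57 ± 1.46 (SD, n = 3) in SK-N-AS, a log2 difference of 0.05 (95% interval -0.40 to 0.49). The ratio of OMA1 to YME1L1 per kb under DMSO was 0.0941 ± 0.0073 (SD, n = 3) in KELLY and 0.0575 ± 0.0043 (SD, n = 3) in SK-N-AS. Under Erastin it was 0.101 ± 0.0061 (SD, n = 3) in KELLY, where the treatments overlapped. In SK-N-AS it was 0.0675 ± 0.0029 (SD, n = 3) under Erastin, with every Erastin library above every DMSO library. OMA1 and YME1L1 each overlapped between the treatments on their own. Of single genes tested in this line, 14.9% separated the treatments, and no such share was computed for ratios. This ratio had no test of its own either. HSPA9 lies at chr5:138553756-138575675 and YME1L1 at chr10:27110111-27155266, both on the minus strand of GRCh38.

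The remaining members did not pass between the lines on the deposited counts. HSPD1 differed by -0.10 (95% interval -0.37 to 0.17) and HSPE1 by -0.18 (95% interval -0.56 to 0.20) on the log2 scale. LONP1 stood at 131 ± 49.7 CPM (SD, n = 3) in KELLY and 197 ± 28.4 (SD, n = 3) in SK-N-AS, a log2 difference of 0.58 (SE 0.27, adjusted p = 0.0917 from edgeR). CLPP differed by 0.38, DNAJA3 by 0.19 and CLPX by -0.30. With each library's GC trend within its line removed, 7 of 10 members passed, where 73.9% of genes did. That trend was taken against the mean of the library's own line. A GC trend between the lines, if present, was therefore not removed from these differences. The 4 added were LONP1 at 0.64 (adjusted p = 5.87e-05 from edgeR), CLPP at 0.44 (adjusted p = 0.0166 from edgeR), CLPX at -0.28 (adjusted p = 0.00770 from edgeR) and DNAJA3 at 0.20 (adjusted p = 0.0224 from edgeR). Without KELLY DMSO replicate 2, LONP1 and CLPP passed as well, which made 5. With no filter on low counts LONP1 passed too, which made 4. Over the 17 alternatives the adjusted p ran from 5.87e-05 to 0.222 for LONP1, from 0.0121 to 0.671 for CLPP, from 0.00770 to 0.478 for CLPX and from 0.0224 to 0.660 for DNAJA3.

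Other parts of the same machinery were read from lists of genes written by hand, beside the members' own medians. In KELLY with Erastin, 0 of 18 other mitochondrial proteases and partners, 0 of 11 other chaperones and cochaperones, 0 of 11 genes of protein import and 0 of 8 genes of the OMA1 relay and stress transcription factors passed an adjusted p of 0.05 with edgeR. Their median log2 fold changes were 0.07, 0.05, 0.07 and 0.35, and 0.03, 0.05, 0.07 and 0.08 with the GC trend removed. In SK-N-AS the medians were -0.03, -0.04, -0.12 and 0.05, and the genes that passed were 2 of the relay list, both higher with Erastin. For protein import, 10 of 11 tested genes had a negative log2 fold change in SK-N-AS, and 0 of them passed. The median over all genes tested in that line was -0.01. In KELLY, 8 of 11 import genes had a positive value, with and without the GC correction. With the GC trend removed, GRPEL2 at 0.31 (adjusted p = 0.0204 from edgeR), a nucleotide exchange factor of mortalin, and TIMM44 at 0.46 (adjusted p = 2.50e-04 from edgeR), which anchors mortalin at the import channel, were added in SK-N-AS, both higher with Erastin. In that fit 5.58% of all genes passed. TIMM44 in KELLY stood at 0.68 (unadjusted p = 0.0389 and adjusted p = 0.770 from edgeR), past the threshold of the methods. With the GC trend removed, its KELLY value was 0.37 (adjusted p = 0.256 from edgeR). GRPEL2 in KELLY stood at -0.05, and at 0.13 with the GC trend removed.

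The 2 relay genes were ATF4 and TRIB3. ATF4 stood at 112 ± 4.93 CPM (SD, n = 3) under DMSO and 317 ± 33.6 (SD, n = 3) under Erastin in SK-N-AS, a log2 fold change of 1.51 (adjusted p = 5.16e-06 from edgeR). TRIB3, a pseudokinase gene induced by ATF4, rose by 1.06 (adjusted p = 0.00179 from edgeR) in SK-N-AS. Its KELLY value was 0.60 (unadjusted p = 0.0122 and adjusted p = 0.770 from edgeR), past the threshold of the methods. With the GC trend removed, the KELLY value was 0.28. In KELLY, ATF4 stood at 288 ± 61.2 CPM (SD, n = 3) and 503 ± 58.7 (SD, n = 3), a log2 fold change of 0.81 with an unadjusted p of 0.00284 and an adjusted p of 0.770 from edgeR. After GC correction the KELLY log2 fold change of ATF4 was 0.55 (adjusted p = 0.0839 from edgeR). The interaction of line and treatment for ATF4, SK-N-AS minus KELLY, was 0.70 (adjusted p = 0.811 from edgeR). It was 0.98 (adjusted p = 0.00400 from edgeR) with the GC trend removed, the only 1 of 22 alternatives in which it passed. The upstream relay genes had small values. The log2 fold change of DELE1 was 0.16 in KELLY and -0.02 in SK-N-AS, and that of EIF2AK1 was -0.15 and 0.08, with adjusted p of 0.770 or more from edgeR. ATF5, a transcription factor tied to the mitochondrial unfolded protein response, stood at 0.36 in KELLY, or 0.06 after GC correction, and at 0.02 in SK-N-AS on the log2 fold change scale. For DDIT3, which encodes CHOP, the values were 0.75 and 0.54, with adjusted p of 0.770 and 0.343 from edgeR. In KELLY the former was 0.38 without DMSO replicate 1 and 1.08 without DMSO replicate 3.

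Between the DMSO controls, 9 of 18 other proteases and partners, 5 of 12 chaperones and cochaperones, 2 of 11 import genes and 5 of 8 relay genes passed, beside the 61.3% of all genes. After GC correction, which acts within each line and leaves a GC trend between the lines, 14 of 18, 8 of 12, 7 of 11 and 7 of 8 passed, beside the 73.9%. CLPB, a disaggregase of the intermembrane space, had a lower level in SK-N-AS, with a log2 difference of -2.40 (adjusted p = 2.69e-06 from edgeR). METAP1D, a mitochondrial methionine aminopeptidase, differed by -2.08 (adjusted p = 6.85e-06 from edgeR). Higher in SK-N-AS were IMMP2L, a subunit of the inner membrane peptidase, at 1.62 (adjusted p = 4.27e-04 from edgeR), GRPEL1, the main exchange factor of mortalin, at 1.48 (adjusted p = 3.28e-05 from edgeR), and PGAM5, a phosphatase of mitochondria, at 1.16 (adjusted p = 0.00214 from edgeR). DNAJC15, a J-domain protein of the import motor, had 0, 1 and 0 counts in the KELLY DMSO libraries and 818, 892 and 1027 counts in those of SK-N-AS. Among the stress factors, ATF4 was lower in SK-N-AS with a log2 difference of -1.38 (adjusted p = 1.29e-04 from edgeR), as was EIF2AK1 at -0.35 (adjusted p = 0.0478 from edgeR, under 0.05 in 8 of 17 alternatives and up to 0.175 without SK-N-AS DMSO replicate 1), while ATF5 at 1.34 (adjusted p = 3.64e-04 from edgeR) and TRIB3 at 0.87 (adjusted p = 0.00194 from edgeR) were higher. DELE1 at -0.34 (adjusted p = 0.0600 from edgeR) and DDIT3 at 0.17 (adjusted p = 0.736 from edgeR) did not pass. DELE1 passed in 5 of 17 alternatives, among them the fit with the GC trend removed (-0.33, adjusted p = 0.00109 from edgeR).

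The genes most like HSPD1, HSPA9 and LONP1 were sought among 12353 genes by Pearson's r over the 12 libraries, each centred on the mean of its line. They were KCNAB1, MKKS and MRPS6 for HSPD1 (r = 0.970 to 0.975), CCT4, ENOPH1 and TIMM17A for HSPA9 (r = 0.984 to 0.985) and PPDPF, RBCK1 and FAM160B2 for LONP1 (r = 0.995 to 0.996). The 3 genes most like LONP1 have a GC content of 55.5% to 68.3%, and the 3 most like HSPA9 41.2% to 43.3%. These values describe libraries that share a GC trend and carry no test.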

How the data were processed

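RNA-seq of 12 samples was analysed, and the unit was the raw read count per gene name, as the authors deposited it. According to the methods and labels, the authors trimmed paired-end reads with Trimmomatic, aligned them to GRCh38 and counted them with HTSeq on a GENCODE release earlier than 44. Transcript lengths, GC content, GENCODE positions and exon overlaps given here are from GENCODE 44. They can differ from the annotation on which the reads were counted. The aligner and the strand setting are not given in the sources used here. Every sample column was matched to a label. The 2 lines were fitted separately, and the DMSO controls and the interaction on both tables joined by gene name, in edgeR 4.0.16 (R 4.3.3) with filterByExpr, TMM and the quasi-likelihood test. P-values were adjusted by Benjamini-Hochberg over all genes tested. Line, Erastin or control, and replicate were taken from the sample titles, which do not name the vehicle, dose or time. The study's own text gives those. The GC trend was removed as an offset (loess, span 0.5, degree 2, over genes with a mean log2 CPM of at least 1), with GC content from GENCODE 44 for 87.6% (KELLY) and 88.4% (SK-N-AS) of those tested. Each library's trend was taken against the mean of its own line, so a GC trend between the lines was left in place. DESeq2 1.42.0, limma-voom (limma 3.58.1) and other scalings and filters were alternatives. Depth was 24169796 to 29835670 counts per library. Some cell type markers are not reported here. The scripts were tested on simulated data that held no GC trend, so the removal of such a trend was not tested. For the interaction and the controls, the simulated replicates also varied less than these libraries. The members and lists were chosen with earlier results of these data known. Named from the lists were ATF4, ATF5, DDIT3, TRIB3, DELE1, EIF2AK1 and, per comparison, up to 6 others with an adjusted p under 0.05, taken by size of change, and the 3 genes most correlated with HSPD1, HSPA9 and LONP1. GRPEL2, TIMM44, AFG3L2 and HSPE1-MOB4 were named after their values were seen.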

Additional observations from a re-analysis of the deposited data

How the results depend on the processing

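Of the 10 members, 0 passed with Erastin in KELLY and in the interaction under all alternatives run, among them RLE factors, library size alone, DESeq2, limma-voom, other filters and each replicate left out. In SK-N-AS, 2 passed with the GC correction and 2 with the replicate block and the GC correction, against 0 otherwise. Between the controls, 3 passed, 7 with the GC correction, 7 with the replicate block and that correction, 4 with no filter, and 3 to 5 with 1 replicate left out. The correlation of same-numbered deviations was -0.58, -0.59 and -0.07 in KELLY, -0.03, 0.10 and 0.18 in SK-N-AS and -0.37, 0.12 and -0.13 between the controls, and since no set was over 0.1 throughout, numbers were not taken to pair the samples. The replicate block alone gave 0, 0, 0 and 3 members in KELLY, SK-N-AS, the interaction and the controls, and it changed no call of a member. Over all genes the KELLY calls numbered 1, and 0 with the block, 28 with the GC correction and 31 with DESeq2. The SK-N-AS calls numbered 106, and 308, 898 and 223 in the same order.

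Signs changed for values that passed no test. With the GC correction in KELLY they were 0.00287 for CLPX, 0.0119 for HSPD1, 0.120 for OMA1, 0.0365 for YME1L1 and -0.144 for SPG7, and with the replicate block added 0.00309, 0.0103, 0.113, 0.0370 and -0.136. In the interaction they were -0.0469 for HSPA9, -0.0829 for YME1L1 and 0.0436 for SPG7, and with the replicate block added -0.0453, -0.0829 and 0.0356. With 1 replicate left out, the ranges crossed 0 in KELLY for OMA1 (-0.144 to 0.164), YME1L1 (-0.227 to 0.0115) and SPG7 (-0.0972 to 0.106). In SK-N-AS they did for DNAJA3 (-0.0942 to 0.0258), LONP1 (-0.0799 to 0.124), YME1L1 (-0.115 to 0.0498), DELE1 (-0.0689 to 0.0196) and ATF5 (-0.0959 to 0.114). In the interaction they did for DDIT3 (-0.547 to 0.159) and YME1L1 (-0.0584 to 0.185), and between the controls for DDIT3 (-0.206 to 0.498) and OMA1 (-0.0393 to 0.193).

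With 3 libraries a group and this spread between replicates, small changes in KELLY were not detectable.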
